A study of Caenorhabditis elegans with 5 samples.

Results

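The *C. elegans* eggshell is built by proteins that the oocyte makes before it is fertilized, and 10 of their genes are described here: *cbd-1*, *perm-2*, *perm-4*, *chs-1*, *cpg-1*, *cpg-2*, *cpg-3*, *egg-1*, *egg-2* and *egg-3*. They were chosen by symbol, as genes of the vitelline, chitin and proteoglycan layers of the shell and of the egg activation complex, and all 10 were found among the 25393 genes of the deposited table. RNA was sequenced from wild-type N2 animals that had been synchronized as starved L1 larvae and grown on agar plates seeded with *E. coli* HT115, with 400 µM tamoxifen (3 libraries) or 400 µM citrate (2 libraries). Each library comes from pooled whole animals labelled as stage L4 and as treated for 48 h. The study states that tamoxifen delays development. To keep differences in developmental rate out of the comparison, it states, tamoxifen animals were collected later than control animals. Treatment and time of collection therefore cannot be told apart in any comparison below. The design names biological replicates, and nothing else says how the cultures were separated, so p-values measure the spread between these libraries.

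As background, shell formation starts at fertilization and runs from the outside inwards. The vitelline layer, which already surrounds the oocyte and holds CBD-1, PERM-2 and PERM-4, is joined by a chitin layer made by the chitin synthase CHS-1 and then by an inner layer of chondroitin proteoglycans that includes CPG-1 and CPG-2. EGG-1 and EGG-2 are oocyte surface proteins needed for sperm entry, and EGG-3 holds regulators of egg activation at the oocyte cortex together with the pseudophosphatases EGG-4 and EGG-5.

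Levels were measured by Cel-seq2, a 3′ tag method in which reads come from the end of the transcript next to its poly(A) tail. They are given as counts per 1000000 tags of the library (CPM), and depth ran from 1782371 to 38276144 tags per library. The lowest count behind any value of the 10 genes was 102 tags. Tamoxifen was compared with citrate by limma, which fits every gene on the log2(CPM + 1) scale and pools the estimate of the spread. It was run on the 8325 genes that reached 5 CPM in 2 or more libraries. A gene was called where its p, adjusted by Benjamini and Hochberg, was under 0.01 and its level differed by over 2-fold. Over all tested genes 388 were higher in tamoxifen, which is 4.66%, and 230 were lower, which is 2.76%. The median of the log2 fold changes over all tested genes was 0.24, and the changes below are to be read relative to it. After median-of-ratios scaling 140 genes were higher and 268 lower, so that higher genes made up 34.3% of the calls in place of 62.8%.

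All 10 eggshell genes had a higher CPM in every tamoxifen library than in either citrate library. Of the 10, 6 passed the test and rose (*cbd-1*, *cpg-1*, *cpg-2*, *egg-1*, *egg-2* and *egg-3*), 0 fell and 4 were not called, where 4.66% of all tested genes rose. In limma, edgeR and DESeq2 alike 9 of the 10 had an unadjusted p under 0.05, each of them higher in tamoxifen. That limit was passed by 44.5% of all tested genes in limma, 42.4% in edgeR and 41.2% in DESeq2, in either direction, so counts at an unadjusted p say little about a list, here and below. The median log2 fold change of the 10 genes was 1.62, against 0.24 over all tested genes. In 39.4% of all tested genes the tamoxifen libraries also lay wholly above the citrate libraries, and in 32.1% citrate replicate 2 was above citrate replicate 1 as well, as in all 10 eggshell genes. Summed over the 10 genes, the level was 8537, 8038 and 8814 CPM in the tamoxifen libraries, against 2967 and 4775 CPM in the citrate libraries. As a share of the library this was 0.854%, 0.804% and 0.881% with tamoxifen and 0.297% and 0.477% with citrate, and the widest exact 95% binomial interval, in tamoxifen replicate 3, ran from 0.868% to 0.895%. These intervals cover counting error only. In RNA from whole animals, a change in the number of cells of a type and a change in RNA per cell cannot be told apart.

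**Figure D1:**
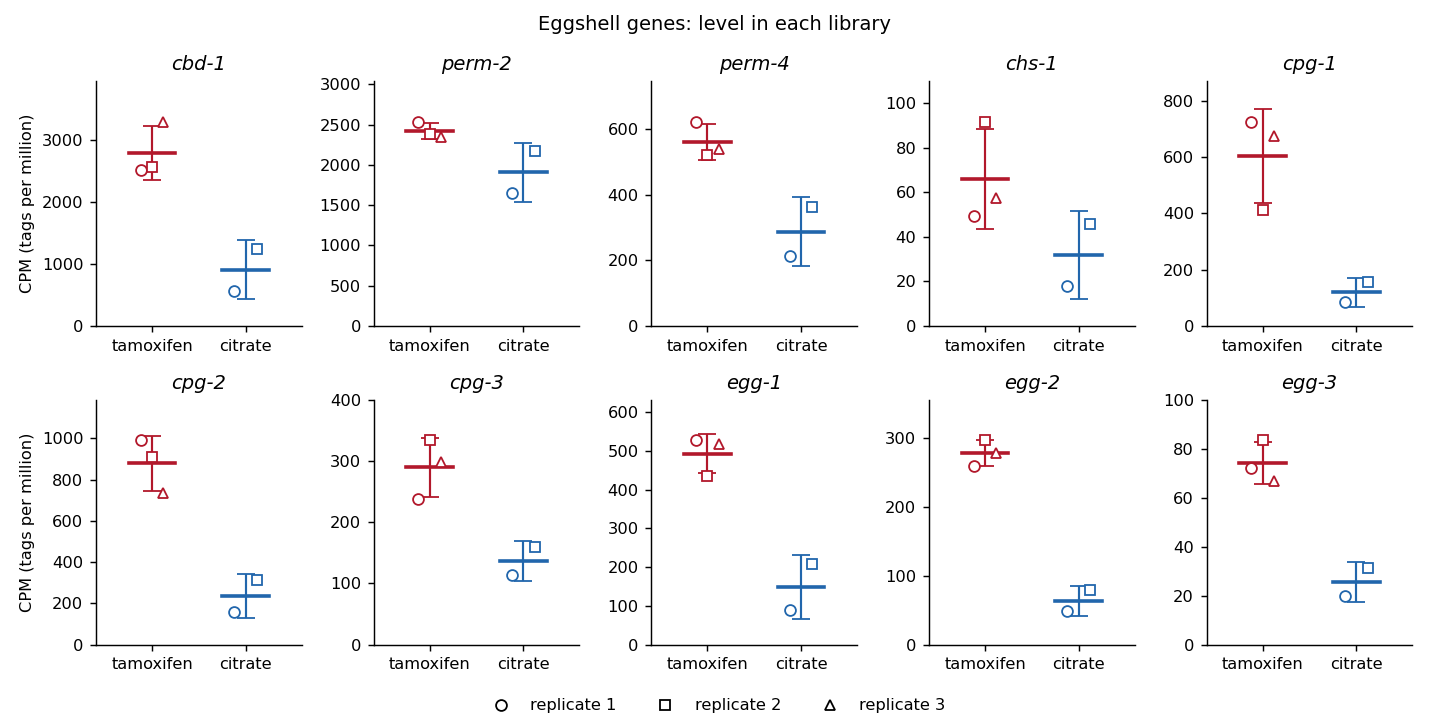
Level of each of the 10 eggshell genes in CPM (y axis, from 0) in the 3 tamoxifen libraries and the 2 citrate libraries. Symbols are single libraries, bars the mean and error bars the SD. Every tamoxifen symbol lies above both citrate symbols in each panel, by a wide margin for *egg-2* (lowest tamoxifen value 3.27 times the higher citrate value) and a narrow one for *chs-1* and *perm-2* (1.08 times in each).

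Among the genes of the vitelline layer, *cbd-1* rose. It encodes a protein with chitin-binding domains that ties the vitelline layer to the chitin beneath it. *cbd-1* (chromosome IV, 11372991 to 11377627 in Ensembl release 115 on WBcel235, where it overlaps no other annotated gene) had 2519, 2572 and 3299.5 CPM in the tamoxifen libraries, against 569.9 and 1249.8 CPM in the citrate libraries. The lowest tamoxifen library was 2.02 times the higher citrate library. The means were 2797 ± 436 CPM with tamoxifen (SD, n = 3) and 909.8 ± 481 CPM with citrate (SD, n = 2), and the log2 fold change was 1.72 (± 0.28 SE, limma adjusted p = 0.0029).

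*perm-4* and *perm-2*, whose products are needed for an intact permeability barrier, lie head to head on chromosome IV (1121494 to 1125107 on the minus strand and 1126790 to 1128865 on the plus strand), with 1682 bp and no annotated gene between them. *perm-4* had 623, 521 and 539 CPM with tamoxifen, against 213 and 363 CPM with citrate. Its log2 fold change of 1.0 (± 0.26 SE, limma adjusted p = 0.0154) did not pass the limit on p. *perm-2* had 2534, 2379.7 and 2351 CPM with tamoxifen, against 1651 and 2169.6 CPM with citrate. No tamoxifen value lay among the citrate values, but the gap was small beside the difference of 1.31-fold between the citrate libraries. The log2 fold change of *perm-2* was 0.35, with a 95% interval from -0.06 to 0.77 (limma adjusted p = 0.168), close to the median of all tested genes. A gene annotated on the opposite strand, *C44B12.6*, overlaps *perm-2* and had at most 2.28 CPM in any library.

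The ratio of *perm-4* to *perm-2* within a library puts these neighbours side by side. It was 0.246, 0.219 and 0.229 in the tamoxifen libraries and 0.129 and 0.167 in the citrate libraries, without overlap. On the log2 scale the ratio was higher with tamoxifen by 0.65 (exact permutation test over the libraries, two-sided p = 0.1, the smallest that 3 libraries against 2 allow). Adjusted over the 4 pairs of genes compared in this way, p was 0.4.

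*chs-1*, the chitin synthase of the eggshell (chromosome I, 7554855 to 7559916), had 49.5, 91.6 and 57.2 CPM with tamoxifen, against 18.0 and 45.8 CPM with citrate. These values rest on 174, 3506 and 102 tags in the tamoxifen libraries, and on 340 and 425 tags in the citrate libraries. The groups did not overlap, but the lowest tamoxifen value was only 1.08 times the higher citrate value. The log2 fold change of *chs-1* was 1.12 with a 95% interval from 0.28 to 1.96 (limma adjusted p = 0.0444), which did not pass. It overlaps the gene *T25G3.3*, annotated on the same strand, and tags from the shared stretch could have been assigned to either. *T25G3.3* had 243, 364 and 376 CPM with tamoxifen and 145 and 251 CPM with citrate (log2 fold change 0.75, limma adjusted p = 0.0699).

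The proteoglycan genes *cpg-1* and *cpg-2* rose the most of the shell's structural genes. Both encode core proteins that carry chondroitin chains and bind chitin, and they act redundantly in the embryo. *cpg-1* (chromosome III, 4489359 to 4491392) had 726, 412 and 674 CPM with tamoxifen, against 84.0 and 156 CPM with citrate. It had a log2 fold change of 2.34 (± 0.32 SE, limma adjusted p = 0.00118), above that of 99.7% of all tested genes. *cpg-2* (chromosome III, 7102092 to 7103990) had 991, 912 and 734 CPM with tamoxifen, against 158 and 312 CPM with citrate. Its log2 fold change was 1.97 (± 0.29 SE, limma adjusted p = 0.00166). In both genes the lowest tamoxifen value was over the citrate values by a clear margin, at 2.64 times the higher of them for *cpg-1* and 2.35 times for *cpg-2*.

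*cpg-3*, a further chondroitin proteoglycan gene (chromosome I, 7244937 to 7246295), had 237, 334 and 298 CPM with tamoxifen, against 114 and 160.2 CPM with citrate. The groups did not overlap, and the log2 fold change of 1.08 (± 0.27 SE, limma adjusted p = 0.013) missed the limit on p. *R06C7.6*, on the opposite strand and overlapping *cpg-3*, had at most 4.84 CPM in any library.

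The 3 genes for the oocyte surface and the egg activation complex all rose. *egg-1* (chromosome III, 5728180 to 5730159), which encodes a membrane protein with LDL-receptor repeats, had 528, 436 and 517 CPM with tamoxifen, against 89.8 and 207 CPM with citrate. Its paralog *egg-2* (chromosome III, 7058527 to 7060583) had 258, 296 and 277 CPM with tamoxifen, against 48.1 and 79.0 CPM with citrate. The values of *egg-2* were the closest within tamoxifen after *perm-2*, with the highest library at 1.15 times the lowest. The log2 fold changes were 1.84 for *egg-1* (± 0.32 SE, limma adjusted p = 0.00342) and 2.15 for *egg-2* (± 0.28 SE, limma adjusted p = 0.00118). *egg-1* and *egg-2* are similar in sequence, so their separate values depend on how tags were assigned to paralogs. The ratio of *egg-1* to *egg-2* was 2.04, 1.47 and 1.87 in the tamoxifen libraries and 1.87 and 2.62 in the citrate libraries, and these ranges overlapped (exact permutation, two-sided p = 0.5, also after adjustment over the 4 pairs).

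*egg-3*, the cortical anchor of the complex (chromosome II, 10882408 to 10884441), had 72.3, 83.5 and 66.8 CPM with tamoxifen, against 19.9 and 31.3 CPM with citrate. The log2 fold change of *egg-3* was 1.53 (± 0.30 SE, limma adjusted p = 0.0058). The ratio of *chs-1* to *egg-3*, whose products meet at the oocyte cortex, overlapped between the groups, with 0.685, 1.10 and 0.857 in tamoxifen and 0.904 and 1.47 in citrate (exact permutation, two-sided p = 0.4). That of *cpg-1* to *cpg-2* overlapped too, with 0.732, 0.452 and 0.919 in tamoxifen and 0.530 and 0.501 in citrate (exact permutation, two-sided p = 0.4). Both p-values were 0.5 after adjustment over the 4 pairs. *lurp-1*, which overlaps *egg-3* on the opposite strand, had at most 2.65 CPM, and *B0244.9*, which overlaps *egg-1* in the same way, at most 17.6 CPM. Whether the counting used strand is not given in the sources used here.

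The citrate libraries differed from each other in the same direction as tamoxifen from citrate. In each of the 10 genes citrate replicate 2 exceeded citrate replicate 1, as in 59.7% of all tested genes. The difference had a median of 0.83 on the log2 scale over the 10 genes, against 0.13 over all tested genes, and it exceeded 2-fold for *chs-1* (2.54-fold), *egg-1* (2.31-fold) and *cbd-1* (2.19-fold), as for 5.51% of all tested genes. For 7 of the 10 genes the step from citrate replicate 2 to the tamoxifen mean was larger than that between the citrate libraries. The exceptions were *perm-2*, *perm-4* and *chs-1*. Among the 7, the steps were nearly equal on the log2 scale for *cbd-1* (1.15 against 1.13) and *egg-1* (1.243 against 1.197). This count was not compared with that over all tested genes. For *chs-1* the log2 difference between the citrate libraries was 1.30, and the tamoxifen mean lay 0.47 above citrate replicate 2. For *egg-2* these values were 0.70 and 1.80, and for *cpg-1* they were 0.89 and 1.90.

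The count of calls depended on single libraries. Leaving 1 out could not change the direction of any of the 10 genes, since every tamoxifen library lay above both citrate libraries. Without citrate replicate 1 no eggshell gene passed in limma, with 8 of the 10 at an unadjusted p under 0.05, as 21.9% of all genes in that fit. The median log2 fold change of the 10 was 1.18 in that fit, against 0.23 over all its genes. Without citrate replicate 2 these medians were 2.06 and 0.35. Where 1 citrate library was left, it was assumed to vary like the tamoxifen libraries. Without tamoxifen replicate 1 the count of eggshell genes called as higher was 1 (*egg-2*), without tamoxifen replicate 2 it was 5 and without tamoxifen replicate 3 it was 4. Over all genes these fits called 21 of 8095, 294 of 8208 and 44 of 8052 as higher, so the calls changed well beyond the 10 genes. On recovered tags DESeq2 called the same 6 genes, and edgeR called 5, all but *egg-3* (adjusted p = 0.0112). Of all 8325 tested genes DESeq2 called 459 as higher and edgeR 148.

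**Figure D2:**
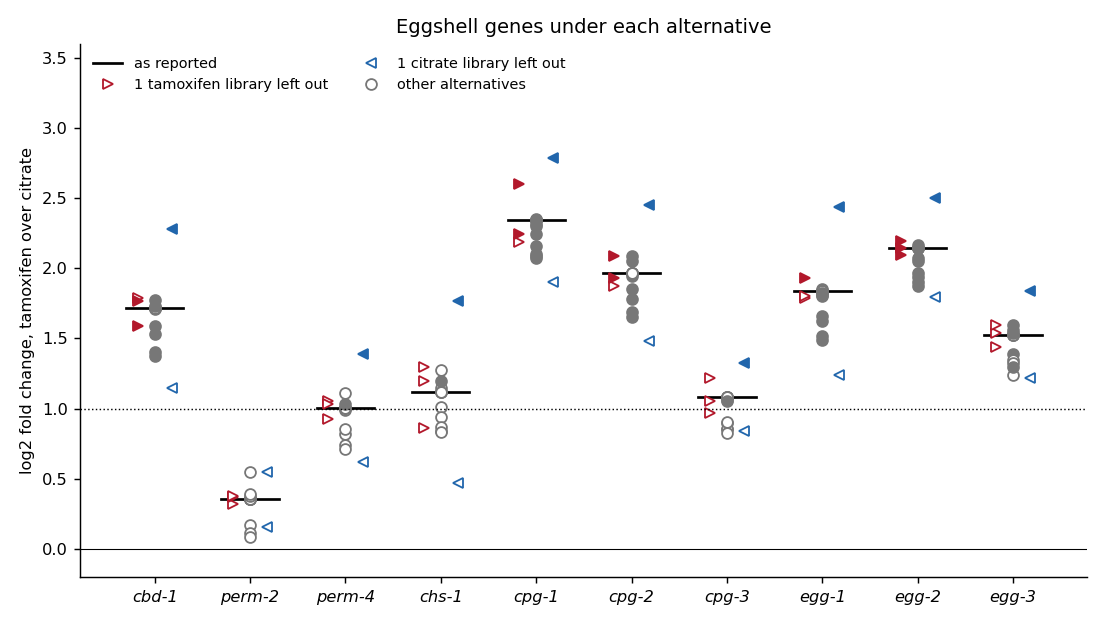
Log2 fold change of each eggshell gene (y axis, tamoxifen over citrate) as reported (black line) and under each alternative: with 1 tamoxifen library left out (red), with 1 citrate library left out (blue) and with other processing (grey). Filled symbols passed an adjusted p of 0.01 and 2-fold (dotted line), and every value lies above 0, from 0.08 for *perm-2* with DESeq2 to 2.79 for *cpg-1* without citrate replicate 2.

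The partners of these genes were examined next, by lists of the pathways that feed the shell. Of the 6 egg activation partners, 2 rose and 0 fell, with a median log2 fold change of 1.0, where 4.66% of all tested genes rose. Those that rose were *egg-4* and *egg-5*, pseudophosphatases so alike that tags may be divided between them arbitrarily. *egg-5* had 87.1, 149 and 160.5 CPM with tamoxifen, against 24.0 and 60.1 CPM with citrate (log2 fold change 1.72, limma adjusted p = 0.00876). *egg-4* had 121, 115 and 164 CPM with tamoxifen, against 28.1 and 64.9 CPM with citrate (log2 fold change 1.60, limma adjusted p = 0.0079). In both genes every tamoxifen library lay above both citrate libraries, as in 39.4% of all tested genes. DESeq2 called 2 of the 6 as higher, while edgeR and limma after median-of-ratios scaling called 0, with 4 at an unadjusted p under 0.05 in each fit, a limit passed by 41.2% to 42.4% of all tested genes in these fits. The kinase gene *mbk-2*, which drives the turnover of oocyte proteins at egg activation, was not called at a log2 fold change of 0.93 (adjusted p = 0.0118 in limma), nor were *sep-1* (separase), *syx-4* (a syntaxin) and the general trafficking gene *rab-11.1*, the last at 0.19 (limma adjusted p = 0.579).

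Chitin is made from UDP-N-acetylglucosamine, and 4 genes of amino sugar supply were found, of which 2 rose and 0 fell. Over all tested genes 4.66% rose. *gfat-2*, for the aminotransferase that opens the hexosamine pathway, had 1309, 1489.8 and 1774 CPM with tamoxifen, against 261 and 692 CPM with citrate (log2 fold change 1.83, limma adjusted p = 0.0036). *gfat-1*, which serves the same reaction, had 474, 338 and 516 CPM with tamoxifen, against 87.0 and 222 CPM with citrate (log2 fold change 1.64, limma adjusted p = 0.00705). In both, citrate replicate 2 also exceeded citrate replicate 1, by 2.65-fold and 2.55-fold. The acetyltransferase genes had opposite signs, with 1.30 for *gna-2* (limma adjusted p = 0.0228), which is needed for the eggshell, and -0.57 for *gna-1* (limma adjusted p = 0.341), and neither was called. By edgeR 1 of the 4 was called as higher and by DESeq2 2.

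Chondroitin chains are built by the products of the *sqv* genes and *mig-22*. All 9 had positive log2 fold changes, while 60.1% of all tested genes were positive. The values ran from 0.23 for *sqv-6* to 1.59 for *sqv-5*, with a median of 1.07. Of the 9, 1 passed as higher, where 4.66% of all tested genes did. *sqv-5*, the chondroitin synthase gene, had 322, 271 and 341 CPM with tamoxifen, against 67.2 and 155 CPM with citrate (limma adjusted p = 0.00638). Its partner in polymerization *mig-22* (limma adjusted p = 0.0119) and the nucleotide sugar transporter gene *sqv-7* (limma adjusted p = 0.0108) were just short of the limit, with log2 fold changes of 1.28 and 1.34. DESeq2 called 3 of the 9 as higher and edgeR 0, with 6 at an unadjusted p under 0.05 in both (all tested genes: 41.2% in DESeq2 and 42.4% in edgeR).

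The *cpg* symbol is shared with other chondroitin core proteins, and among the 4 found outside the shell list 1 rose and 2 fell. Over all tested genes 4.66% rose and 2.76% fell. *cpg-9* had 1469, 1383 and 934 CPM with tamoxifen, against 5979 and 3879 CPM with citrate (log2 fold change -1.96, limma adjusted p = 0.00106). *cpg-7* had 39.6, 17.6 and 44.3 CPM with tamoxifen, against 344 and 158 CPM with citrate (log2 fold change -2.85, limma adjusted p = 0.00151). Every tamoxifen library lay below both citrate libraries for these genes, as for 20.8% of all tested genes, and citrate replicate 2 was the lower of the citrate libraries for both. *cpg-4* had 32.7, 28.6 and 43.8 CPM with tamoxifen, against 5.88 and 12.4 CPM with citrate, and rose by 1.89 on the log2 scale (limma adjusted p = 0.00478). Genes of this family name thus moved in both directions, and *cpg-8*, at 0.63, was not called (limma adjusted p = 0.0709). Counts of 1 higher and 2 lower were also given by edgeR and DESeq2.

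**Figure D3:**
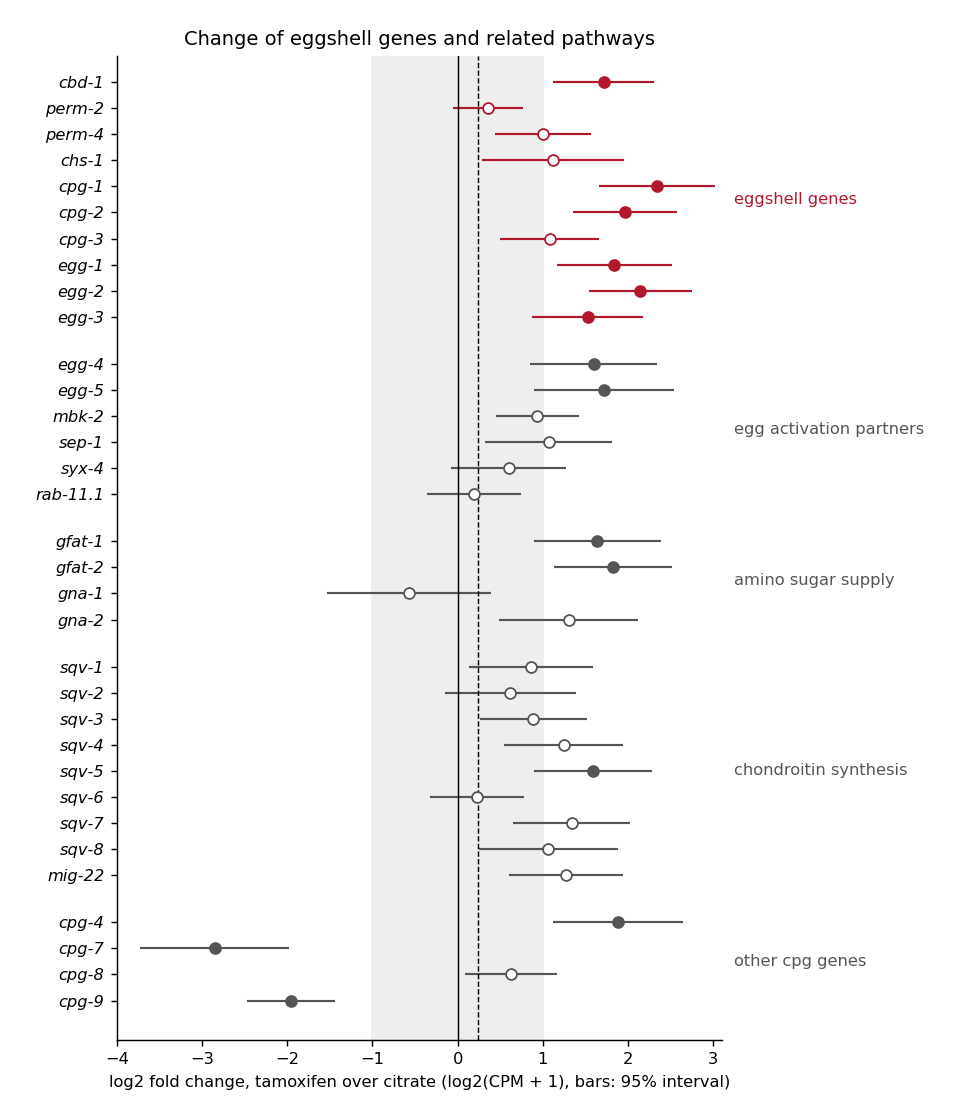
Log2 fold change of tamoxifen over citrate (x axis) with 95% intervals for the 10 eggshell genes (red) and related pathway genes (grey), filled where the gene passed the test. The solid line marks 0, the dashed line the median of all tested genes at 0.24 and the shaded band changes under 2-fold. Most genes lie to the right of the dashed line, and *cpg-7* and *cpg-9* lie far to the left.

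Markers of the cells that make eggshell mRNA moved with the 10 genes. Of 11 oocyte markers 9 rose and 0 fell, where 4.66% of all tested genes rose. The median log2 fold change was 1.50, with a range from 0.94 to 1.93. In all 11 markers citrate replicate 2 exceeded citrate replicate 1. Their summed level was 6082, 6789 and 6533 CPM with tamoxifen, against 1626 and 3114 CPM with citrate. Examples are *oma-2* (log2 fold change 1.93, limma adjusted p = 0.0025), a maturation factor, *rme-2* (1.86, limma adjusted p = 0.00353), the yolk receptor, and *puf-5* (1.70, limma adjusted p = 0.00486), a translational repressor. By DESeq2 9 of the 11 were called as higher, by edgeR 5, and by limma after median-of-ratios scaling 4. Of all 8325 tested genes these fits called 459, 148 and 140 as higher. The median log2 level of the eggshell genes minus that of the oocyte markers was 0.28, -0.33 and 0.51 in the tamoxifen libraries, against -0.17 and -0.41 in the citrate libraries, and these ranges overlapped. The ratio of the summed CPM of the eggshell genes to that of the oocyte markers ran the other way, at 1.40, 1.18 and 1.35 in the tamoxifen libraries and 1.82 and 1.53 in the citrate libraries, without overlap. In the citrate libraries *perm-2*, with a log2 fold change of 0.35, made up 1651 of 2967 and 2169.6 of 4775 summed eggshell CPM, so it weighs heavily in this ratio. The direction relative to oocyte markers thus depended on the measure, and it was not tested. Of 7 general germline markers 1 rose, the meiotic axis gene *htp-3* (log2 fold change 1.63, limma adjusted p = 0.00755), and the median was 1.12. By edgeR 0 of the 7 were called, by DESeq2 2, with 4 at an unadjusted p under 0.05 in both (all tested genes: 42.4% in edgeR and 41.2% in DESeq2). The part of oocyte or germline content in the eggshell result was not tested.

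Markers of muscle and sperm had negative medians. Over 6 body wall muscle markers the median log2 fold change was -0.81 and 1 fell, *act-4* (-1.09, limma adjusted p = 0.00861), an actin gene. Over all tested genes 2.76% fell. The call of *act-4* was lost in limma after quantile normalization (-0.86, adjusted p = 0.0216) and without a trend (adjusted p = 0.0404). It was also lost without tamoxifen replicate 1 (0.0372) or 3 (0.0272). It was kept by edgeR, by DESeq2, after median-of-ratios scaling and without tamoxifen replicate 2. By edgeR and by DESeq2 3 of the 6 fell, and by limma, edgeR or DESeq2 no muscle marker with an unadjusted p under 0.05 was higher in tamoxifen. Their summed level was 4394, 6158 and 3980 CPM with tamoxifen, against 10976 and 7977 CPM with citrate. Of 10 sperm markers 3 were abundant enough to be tested, all major sperm protein genes, and limma called 0, with 2 at an unadjusted p under 0.05, edgeR 1 as lower and DESeq2 2 as lower. These 3 had a median of -1.15. In all 3 citrate replicate 2 exceeded citrate replicate 1, by a median of 0.45, the opposite direction to tamoxifen against citrate. The whole sperm list summed to 276, 162 and 153 CPM with tamoxifen, against 362 and 499.9 CPM with citrate. The 5 markers of gonad sheath and spermatheca had a median of -0.07 with 0 called by limma or edgeR and 1, as lower, by DESeq2, while 2 had an unadjusted p under 0.05. These 2 had opposite signs, with log2 fold changes of 1.23 for the innexin gene *inx-8* (limma adjusted p = 0.0204) and -1.17 for *sth-1* (limma adjusted p = 0.0333). The 8 markers of the early embryo found in the table summed to 0.285, 1.72 and 3.93 CPM with tamoxifen, against 0.318 and 0.323 CPM with citrate, with no tag of *med-1* in any library. A count of 0 allows up to 1.68 CPM in the shallowest library. Oocyte markers were thus present in every library of animals labelled as L4, while no embryo marker was abundant enough to be tested. The highest count was 46 tags, for *pes-10* in tamoxifen replicate 2, where 3 tags are worth 0.0784 CPM. *pes-10* had 1 tag in tamoxifen replicate 3 and 0 in tamoxifen replicate 1 and both citrate libraries. Every other embryo marker had at most 8 tags in any library. The difference in *pes-10* was not tested.

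**Figure D4:**
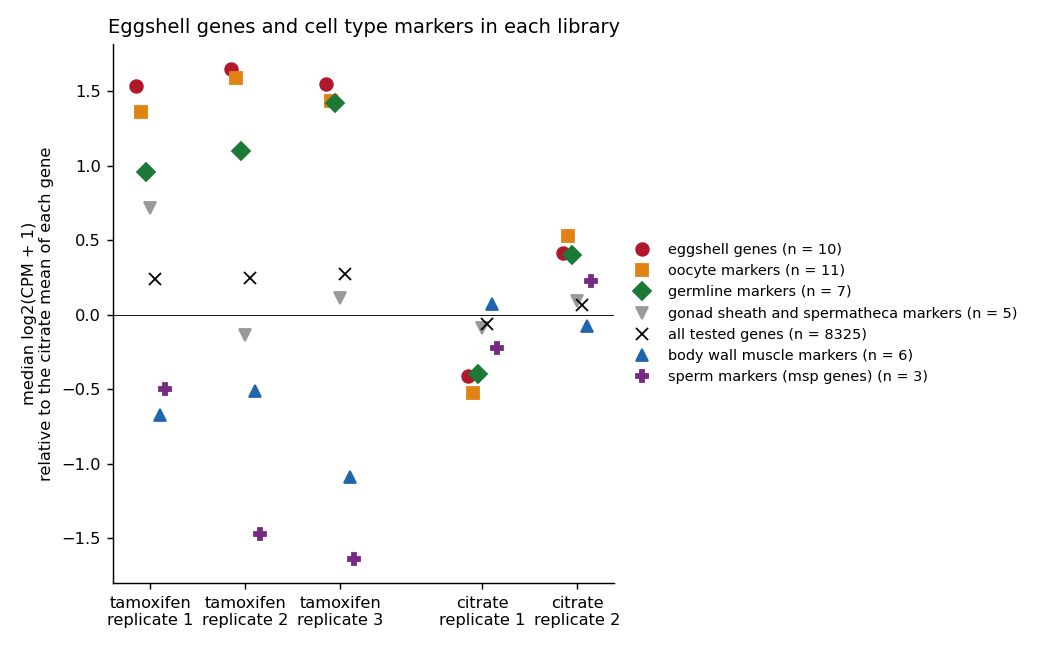
Median log2(CPM + 1) of the tested genes of each list (y axis), relative to the citrate mean of each gene, in every library (x axis, tamoxifen libraries to the left of the citrate libraries). Eggshell genes lie at 1.54, 1.65 and 1.55 in tamoxifen and at -0.41 and 0.41 in citrate, beside the oocyte markers at 1.36, 1.59 and 1.44 and at -0.53 and 0.53, while muscle and sperm markers lie below 0 in each tamoxifen library.

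To see which genes had the most similar pattern, each tested gene was compared over the 5 libraries with the median profile of the 10 eggshell genes, as the root mean square distance between log2(CPM + 1) values centred on each gene's mean. The nearest genes outside the list were *acs-13*, *trcs-1*, *ubxn-3*, *tbx-9* and *plin-1*, at distances from 0.061 to 0.083. They were chosen for their similarity to genes that are higher in tamoxifen, in the same libraries, so their difference between the groups is a description. *acs-13*, an acyl-CoA synthetase gene, was the nearest, with 258, 272 and 249 CPM in tamoxifen, against 63.4 and 132 CPM in citrate. *plin-1*, the perilipin gene of lipid droplets, had 326, 329 and 306 CPM with tamoxifen, against 82.7 and 142 CPM with citrate. Among the 10 genes themselves *egg-3* was nearest to their shared median, at 0.140, and *perm-2* was farthest, at 0.611, where the median over all tested genes was 0.750. The 10 genes set that shared median themselves, so their distances from it only rank them and do not show that they vary together.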

How the data were processed

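Wild-type animals were profiled by Cel-seq2 in 3 tamoxifen and 2 citrate libraries, grouped by the sample titles. The authors deposited 1 table of values they call TPM. Each column sums to 1000000 without use of gene length, so the deposited values were treated as CPM. Trimmomatic 0.32 and STAR are named in the submitters' processing notes and a DolphinNext pipeline in the paper, while build, strand and collapsing of molecular identifiers are not given in the sources used here. Within a tolerance of 0.01 tags, 100% of values were whole multiples of the step worth 1 tag, which gave whole tags for the count tests.

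Of 25393 genes, 25064 had a symbol. Genes with at least 5 CPM in 2 libraries were tested by limma 3.58.1 (R 4.3.3, trend, no covariates) on log2(CPM + 1), which understates changes of low genes. Calls needed an adjusted p under 0.01 and over 2-fold. Alternatives changed the pseudocount, filter, scaling, trend, block, depth and limits, left out each library, or used edgeR 4.0.16 and DESeq2 1.42.0 on recovered tags. The scripts were tested on simulated data. The named genes are the 10 members, up to 3 called genes of each other list with the largest change, genes at 0 in every library, and the 5 nearest profiles, and others are given only as list members, overlapping genes or examples short of the limits, chosen after their values were seen. Members and lists were chosen with earlier results of these data known. Of the list symbols, *uap-1*, *cpg-5*, *cpg-6* and *med-2* were not matched and were not analysed here, and *syn-4* was read as *syx-4*.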

Additional observations from a re-analysis of the deposited data

How the results depend on the processing

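All 10 eggshell genes kept a positive log2 fold change in each of the 16 alternative fits. Those that changed only the filter or the trend leave the estimate as it is. Those that left out 1 library or changed the pseudocount could not reverse a sign, because every tamoxifen library lay above both citrate libraries. The 6 genes called as higher became 0 without a filter on low values (limma, with 9 genes at an unadjusted p under 0.05 there, as 22.9% of all genes in that fit, against 5 calls by edgeR and 6 by DESeq2), 2 without a trend, and from 0 to 9 when 1 library was left out. With the replicate block 9 were called, and 9 in the reported fit at an adjusted p of 0.05. The estimates with the block equal those without tamoxifen replicate 3, the only library of its number, so these are not separate alternatives for the fold changes. Over all genes, 388 higher and 230 lower became 0 and 0 in limma when no gene was filtered (4742 had an unadjusted p under 0.05), 221 and 369 after quantile normalization, 31 and 46 without a trend, 148 and 426 with edgeR, 1044 and 599 with the replicate block, and 1333 and 678 at an adjusted p of 0.05. The higher genes became 140 after median-of-ratios scaling, and the lower genes 780 with DESeq2. Leaving out 1 library gave from 4 to 561 higher and from 1 to 154 lower. The cause of these changes was not tested, beyond fewer libraries or more genes entering the fit. The same replicate numbers are only numbers: same-numbered libraries deviated from their groups with a correlation of 0.12 (replicate 1) and 0.32 (replicate 2), in 2 pairs only. Tamoxifen replicate 3, which has no citrate library of its number, gave 0.21 with citrate replicate 1. With 2 citrate libraries each such value recurs with the opposite sign for the other citrate library, so these values cannot show pairing. The block leaves 1 residual degree of freedom. The median level of eggshell genes relative to oocyte markers was higher with tamoxifen by 0.44, and by 0.27 to 0.68 with 1 library left out. The ratio of their summed CPM, in which *perm-2* weighs heavily, was lower with tamoxifen, at 1.18 to 1.40 against 1.53 to 1.82 with citrate. Depth limits the low genes, since 3 tags are worth 1.68 CPM in tamoxifen replicate 3 and 0.0784 CPM in tamoxifen replicate 2.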

Other observations

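Chitin is also made and broken down outside the eggshell, and the 5 genes of that list were mostly too low to test. *cht-3*, of the chitinase family, had 15.4, 6.30 and 30.9 CPM in the tamoxifen libraries, against 1.43 and 2.16 CPM in the citrate libraries, and was the 1 tested gene of the list. It rose by 2.50 on the log2 scale (limma adjusted p = 0.00638), with the highest tamoxifen library at 4.90 times the lowest. The call of *cht-3* was lost without tamoxifen replicate 1 (limma adjusted p = 0.0262), tamoxifen replicate 3 (0.0123), citrate replicate 1 (0.0925) or citrate replicate 2 (0.0148), and after thinning to the smallest library (0.0211). It was also lost without a trend (0.0148) or a filter (0.106), and its log2 fold change was 2.97 with a pseudocount of 0.1 and 1.57 with a pseudocount of 5. *chs-2*, the chitin synthase gene of the pharynx, was below the level tested, with 3.70, 1.96 and 1.68 CPM in tamoxifen and 0.583 and 0.647 CPM in citrate, and its lowest tamoxifen value rests on 3 tags. *cht-4* had 0.285, 1.31 and 0 CPM in tamoxifen, against 7.31 and 2.05 CPM in citrate. These values rest on 1, 50 and 0 tags, against 138 and 19 tags. *cht-1* had 1.99, 1.80 and 14.6 CPM in tamoxifen, against 0.106 and 0.431 CPM in citrate. Its values rest on 7, 69 and 26 tags, against only 2 and 4 tags. Neither gene was tested. *cht-2* had no tag outside citrate replicate 1, where it had 1 tag.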
